A study of Mus musculus with 8 samples.

Results

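The Cyp2a, Cyp2b and Cyp2g cytochromes P450 are 8 genes of 1 cluster on mouse chromosome 7: Cyp2a4, Cyp2a5, Cyp2a12, Cyp2a22, Cyp2b9, Cyp2b10, Cyp2b13 and Cyp2g1. They were chosen by name, and all 8 were found by their Ensembl IDs among the 49671 genes of a table of liver read counts. All 8 passed the filter on low counts, which 13117 genes passed, and 4 of the 8 reached 1 CPM, a count scaled to its library's total, in every library. The table held 8 liver libraries of C57BL/6 mice (C57BL/6N in the study's methods) labelled as post weaning, with 2 libraries for each of the 4 groups: WT males, NT-KO males, WT females and NT-KO females. NT-KO mice were homozygous for a CRISPR deletion in Lbr spanning part of the first intron and the translation start in the first coding exon. The paper reports that the first intron is then retained in the transcript. The deletion takes away N-terminal parts of the lamin B receptor, an inner nuclear membrane protein, in all cells and from the germline onward. WT mice carried the intact Lbr gene, and the labels name no treatment.

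Cytochromes P450 are heme enzymes of the endoplasmic reticulum that add oxygen to steroids, drugs and other small molecules, with electrons from the reductase Por. Some Cyp2a and Cyp2b genes of the mouse liver are known for induction through the nuclear receptor CAR, encoded by Nr1i3, for example by phenobarbital. Several Cyp2a and Cyp2b genes also differ between the sexes in adult mice. There the pattern of growth hormone release acts on the liver through STAT5b, the female-specific factor Cux2 and the repressor Bcl6.

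Library totals ran from 45020377 to 64396291 counts. Lbr had 8.04 and 6.52 CPM in WT males, 12.8 and 13.6 CPM in NT-KO males, 7.40 and 6.98 CPM in WT females and 12.98 and 14.04 CPM in NT-KO females, so the NT-KO libraries lay above the WT libraries in both sexes. Counts over the whole gene do not show the deletion itself. The summed level of 7 hepatocyte genes was 78920 to 114800 CPM, and that of 5 T lymphocyte genes 1.90 to 3.68 CPM. In whole liver, fewer cells of a type and less RNA per cell cannot be told apart. The labels name no batch, and the library numbers place all males before all females, so any effect of that order and sex cannot be told apart.

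All 8 P450 genes were higher in every female library than in every male library, a pattern that 8.26% of the tested genes had. In WT mice 7 of the 8 were called higher in females, which here means a log2 fold change beyond 1 in size with an FDR (Benjamini-Hochberg) no higher than 0.05 in edgeR's quasi-likelihood test, and Cyp2a12 was not. Of all tested genes 4.68% were called in that comparison and 2.55% were called higher in females. In NT-KO mice 4 of the 8 were called higher in females, Cyp2a4, Cyp2a22, Cyp2b13 and Cyp2g1, beside 1.78% of all genes called and 0.839% called higher in females. The median difference between the sexes over the 8 genes was 4.27 in WT and 3.87 in NT-KO on the log2 scale, beside medians of 0.00 and -0.01 over all tested genes. Cyp2b13 passed the filter on low counts through its female libraries alone, so its difference between the sexes had to be large and is given as a description. Without it 6 of 7 members were called in WT and 3 of 7 in NT-KO, with medians of 4.00 and 2.70. How many members were called depended on which library was left out, and the share of all genes called in those fits is not given here.

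**Figure D1:**
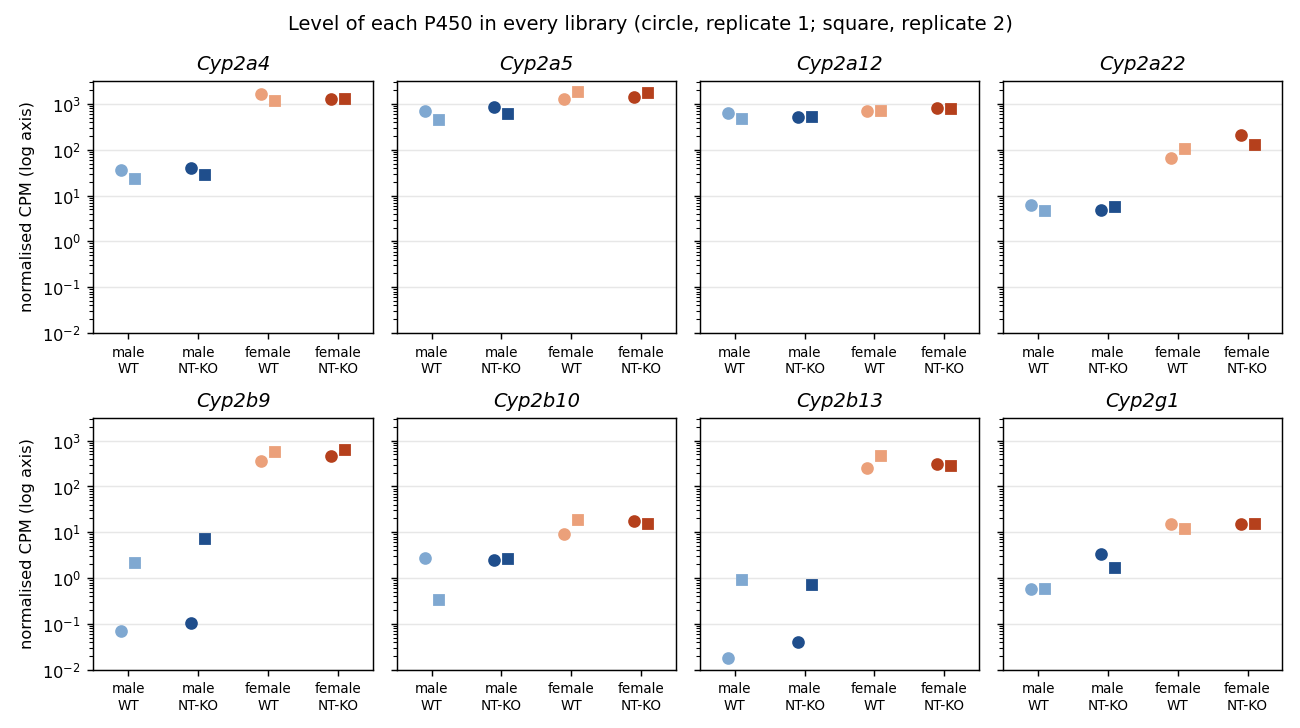
Normalised CPM on a log axis for each of the 8 genes, with 1 point per library and the groups along the horizontal axis (circles, replicate 1; squares, replicate 2). The 4 female points lie above the 4 male points in every panel, by the widest margin in Cyp2b13, where the lowest female library had 269 times the CPM of the highest male library.

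The 8 genes together had 944 to 1457 CPM in the male libraries and 4369 to 4890 CPM in the female libraries. The mean was 1232 ± 232 CPM in males and 4666 ± 234 CPM in females (SD, n = 4 each, both genotypes), a ratio of 3.79. An exact two-sided permutation test over the 8 libraries gave p = 0.0286, the smallest it can give, and 0.0286 after adjustment over 4 such tests. Since each gene was higher in every female than in every male library, this p was fixed beforehand and adds no support. The make-up of this sum also differed. Per kb of exon sequence, Cyp2a5 and Cyp2a12 held 57.8 to 70.3% and 25.2 to 37.7% of the summed level in the male libraries. In the female libraries Cyp2a5 held 28.9 to 36.9%, Cyp2a4 held 29.2 to 45.2% and Cyp2a12 held 8.60 to 10.99%. The Cyp2b genes held under 1% each of the male sum. Cyp2b9 held 8.77 to 14.4% and Cyp2b13 6.14 to 10.8% of the female sum, while Cyp2b10 and Cyp2g1 each stayed under 1% in every library.

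**Figure D2:**
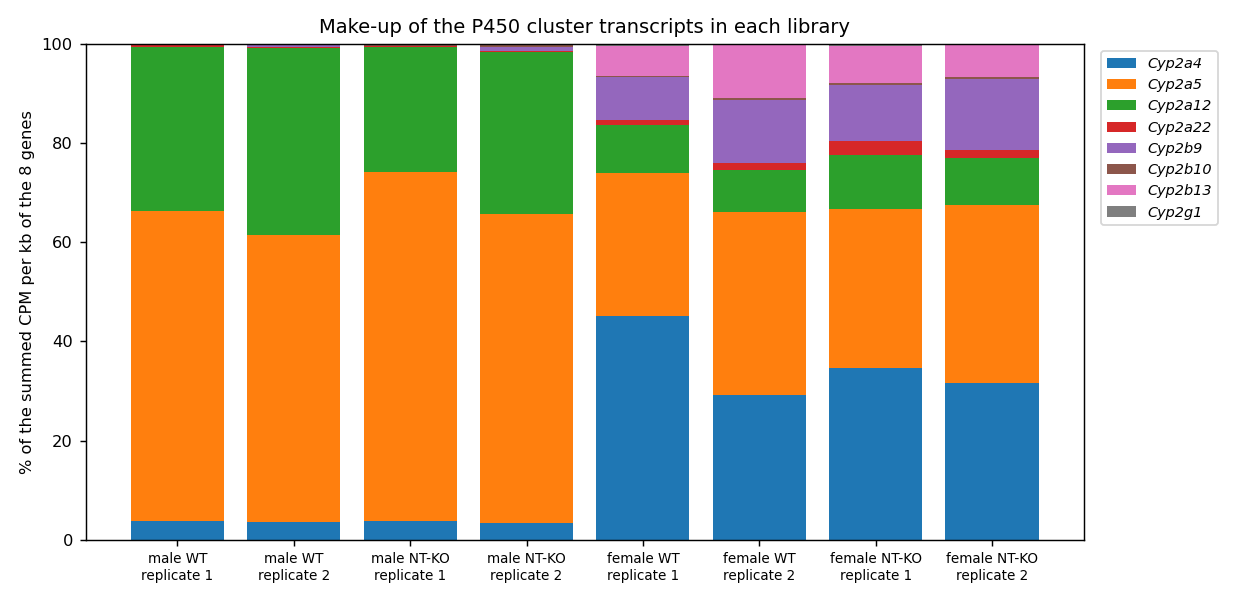
Stacked bars give the percent of the summed CPM per kb that each of the 8 genes held in each library. Cyp2a5 and Cyp2a12 fill most of the 4 male bars, and Cyp2a4, Cyp2b9 and Cyp2b13 take up a larger part of the 4 female bars, for example 45.2% for Cyp2a4 in female WT replicate 1 beside 3.47 to 3.81% in the males.

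Cyp2a4 and Cyp2a5 encode near-identical enzymes, a steroid hydroxylase and the main coumarin hydroxylase of mouse liver. Cyp2a4 (ENSMUSG00000074254) lies on the plus strand of chromosome 7 from 26307169 to 26315088 in GRCm38, and Cyp2a5 (ENSMUSG00000005547) on the same strand from 26835305 to 26843548. Their coding sequences were 98.4% identical, with 23 differences in 1485 aligned bases. The 250 bases before their RefSeq start sites were 98.4% identical as well. They are shown because these 2 genes, so alike in sequence, differed widely in their sex difference. The part printed ends 37 bases before each start, on the plus strand of GRCm38.p6, at chr7:26306942-26307155 for Cyp2a4 and chr7:26835089-26835302 for Cyp2a5, and capitals mark the 4 bases that differ.
Cyp2a4: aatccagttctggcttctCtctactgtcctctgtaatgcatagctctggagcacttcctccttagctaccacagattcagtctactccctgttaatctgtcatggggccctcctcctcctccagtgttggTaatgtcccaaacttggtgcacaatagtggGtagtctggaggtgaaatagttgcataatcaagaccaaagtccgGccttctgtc
Cyp2a5: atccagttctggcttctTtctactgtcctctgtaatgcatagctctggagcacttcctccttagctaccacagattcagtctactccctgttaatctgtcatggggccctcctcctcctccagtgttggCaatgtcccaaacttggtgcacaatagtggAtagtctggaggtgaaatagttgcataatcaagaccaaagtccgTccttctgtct

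Cyp2a4 had 35.4 and 23.0 CPM in WT males, 40.0 and 27.6 CPM in NT-KO males, 1684 and 1179 CPM in WT females and 1310 and 1295 CPM in NT-KO females. The sexes were far apart, and within each sex the genotypes overlapped. Cyp2a4 differed between the sexes by 5.62 ± 0.35 (log2, SE), 49.2-fold, in WT (FDR = 1.95e-04, edgeR's quasi-likelihood test) and 5.28 ± 0.35, 38.7-fold, in NT-KO (FDR = 3.02e-04). Cyp2a5 had 709 and 437 CPM in WT males, 880 and 590 CPM in NT-KO males, 1283 and 1779 CPM in WT females and 1447 and 1750 CPM in NT-KO females. The female libraries were again above the male ones, with the lowest female library at 1.46 times the highest male library. For Cyp2a5 the sex difference was 1.42 ± 0.31 (log2, SE) in WT (FDR = 0.0394) and 1.13 ± 0.31 in NT-KO (FDR = 0.179), so the second was not called. In WT the Cyp2a5 call was lost without male WT replicate 2 (1.118, FDR = 0.152) and without any 1 of the 4 female libraries (1.17 to 1.64, FDR = 0.0654 to 0.184), and with the 4 WT libraries alone (FDR = 0.0589). In NT-KO the likelihood ratio test (FDR = 0.0387) and DESeq2 (FDR = 0.00364) called it.

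Cyp2a4 made up 4.75 and 4.99% of the summed counts of this pair in WT males, 4.35 and 4.47% in NT-KO males, 56.8 and 39.9% in WT females and 47.5 and 42.5% in NT-KO females. The 4 male shares lay within 1 percentage point of each other, and the genotypes overlapped in females. The mean share was 4.64 ± 0.29% in males and 46.7 ± 7.4% in females (SD, n = 4 each), and an exact two-sided permutation test gave p = 0.0286, the smallest 4 against 4 libraries allow, and 0.0286 adjusted over 4 tests. The lowest female Cyp2a4 level was 29.5 times the highest male level, a wider gap than Cyp2a5 spanned over all libraries (437 to 1779 CPM). This p was therefore fixed by the levels and adds no support. Of the 50-base stretches of Cyp2a4 transcripts, 36.1% also occurred in Cyp2a5, and how reads matching both were counted is not given in the sources used here, so the split between the 2 genes is uncertain. Scaling each gene to its unshared sequence gave shares of 5.59 to 6.41% in males and 46.4 to 63.1% in females. The antisense gene Gm42375 overlaps the first bases of Cyp2a4 and had 1 to 12 counts in male and 301 to 397 counts in female libraries. The strand setting of the counting is not given either, so reads of the 2 genes cannot be told apart where they overlap.

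**Figure D3:**
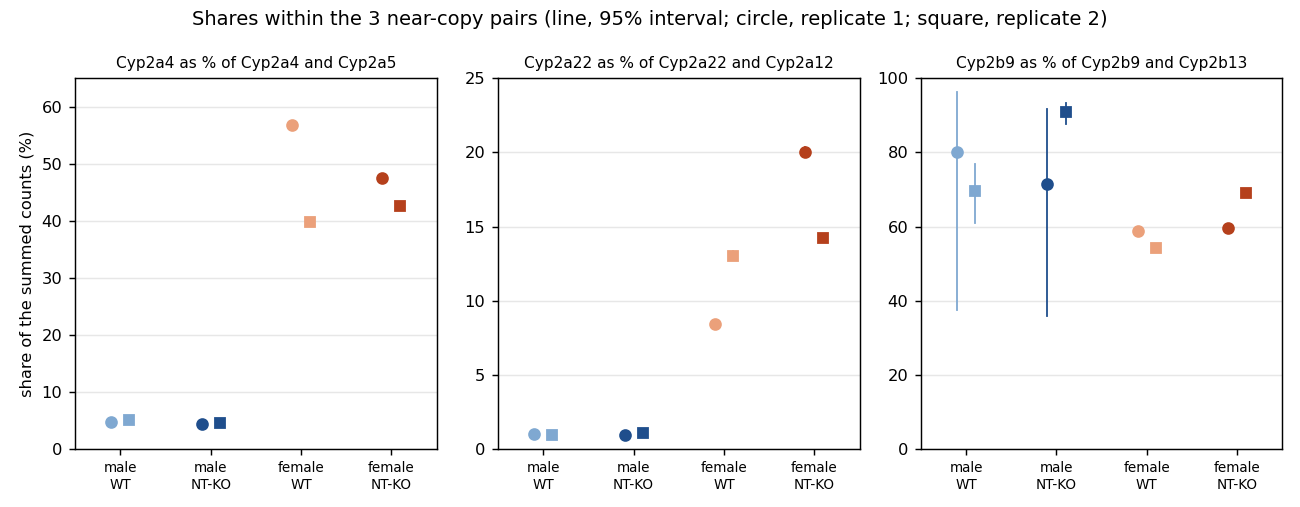
For the pairs of near copies, points give the percent of the pair's summed counts that belonged to the first gene in each library, with 95% Wilson intervals that cover counting error only. Cyp2a4 was under 5% in the males and 39.9% or more in the females, Cyp2a22 about 1% in the males and 8.44% or more in the females, and the Cyp2b9 share in males rests on 5 and 7 counts in the replicate 1 libraries.

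Cyp2a12 and Cyp2a22 form the other Cyp2a pair. Cyp2a12 (ENSMUSG00000060407, 27029081 to 27037375, plus strand) encodes a testosterone hydroxylase, and Cyp2a22 (ENSMUSG00000091867, 26931631 to 26939384, minus strand) is its near copy, with 97.0% of 1479 coding bases identical. Cyp2a12 had 624 and 475 CPM in WT males, 527 and 514 CPM in NT-KO males, 714 and 692 CPM in WT females and 828 and 770 CPM in NT-KO females. It was the most even of the 8 genes. For Cyp2a12 the sex difference was 0.36 ± 0.19 (log2, SE) in WT (FDR = 0.266) and 0.63 ± 0.19 in NT-KO (FDR = 0.256), neither past the threshold. Cyp2a22 had 6.09 and 4.49 CPM in WT males, 4.81 and 5.50 CPM in NT-KO males, 65.8 and 104 CPM in WT females and 208 and 128 CPM in NT-KO females. Both female NT-KO libraries were above both female WT libraries, while the male genotypes overlapped.

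The difference between the sexes in Cyp2a22 was 4.00 ± 0.33 (log2, SE), 16-fold, in WT (FDR = 7.01e-04) and 5.03 ± 0.35, 32.7-fold, in NT-KO (FDR = 4.22e-04). Between the genotypes, Cyp2a22 in females was 0.99 ± 0.30 higher in NT-KO on the log2 scale, 1.99-fold, with an unadjusted p of 0.00970 and an FDR of 1 in edgeR's quasi-likelihood test over all genes, so it was not called. With no filter beyond 1 count its FDR was 0.00244, with a difference under 1. Over the alternatives this difference ran from 0.59, without female NT-KO replicate 1, to 1.35, without female WT replicate 2. Cyp2a22 made up 0.906 to 1.06% of the summed counts of Cyp2a22 and Cyp2a12 in males and 8.44, 13.04, 20.1 and 14.2% in female WT replicates 1 and 2 and female NT-KO replicates 1 and 2. The share in females (13.9 ± 4.8%, SD, n = 4) and in males (0.967 ± 0.066%, n = 4) gave p = 0.0286 in the exact two-sided permutation test, 0.0286 adjusted over 4 tests. The lowest female Cyp2a22 level was 10.8 times the highest male level, while Cyp2a12 spanned only 475 to 828 CPM over all libraries. This p too was fixed by the levels and adds no support. The genes share 20.2% of the 50-base stretches of Cyp2a22, so part of the Cyp2a22 counts may belong to Cyp2a12 or the reverse. The pseudogene Cyp2a21-ps encloses Cyp2a22 and had 246 to 645 counts in males and 978 to 1613 counts in females.

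Cyp2b9 and Cyp2b13 are steroid-hydroxylating P450s of the female mouse liver and had the widest fitted sex differences of the 8. Cyp2b9 (ENSMUSG00000040660) lies at 26173411 to 26210661 and Cyp2b13 (ENSMUSG00000040583) at 26061497 to 26096197, both on the plus strand. Their coding sequences were 92.7% identical over 1476 bases, and the 250 bases before their start sites 99.2% identical. They are shown because both genes were nearly confined to the female libraries. The stretches lie at chr7:26173159-26173372 and chr7:26061245-26061458 in GRCm38.p6 on the plus strand, end 37 bases before the start, and capitals mark the 2 bases that differ.
Cyp2b9: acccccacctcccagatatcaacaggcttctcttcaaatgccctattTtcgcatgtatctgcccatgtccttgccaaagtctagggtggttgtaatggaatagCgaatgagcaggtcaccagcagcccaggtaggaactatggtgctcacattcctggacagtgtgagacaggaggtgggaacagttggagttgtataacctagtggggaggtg
Cyp2b13: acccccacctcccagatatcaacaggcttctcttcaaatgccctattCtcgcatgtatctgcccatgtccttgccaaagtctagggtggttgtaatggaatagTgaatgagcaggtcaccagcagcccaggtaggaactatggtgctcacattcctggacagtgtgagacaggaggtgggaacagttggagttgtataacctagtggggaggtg

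Cyp2b9 had 0.0710 and 2.09 CPM in WT males, from 4 and 89 counts, and 0.102 and 7.10 CPM in NT-KO males, from 5 and 372 counts. In females it had 353 and 555 CPM in WT and 462 and 634 CPM in NT-KO. Cyp2b13 had 1 and 39 counts in WT males and 2 and 37 counts in NT-KO males, all under 1 CPM, so its test between the sexes is given as a description. Its female libraries had 247 and 470 CPM in WT and 312 and 284 CPM in NT-KO. Replicates 1 and 2 of the males differed by more than the genotypes did, by 4.32 (WT) and 5.69 (NT-KO) on the log2 scale for Cyp2b9 and by 4.15 and 3.27 for Cyp2b13. In both genes the higher library was replicate 2 in both genotypes.

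The difference between the sexes in Cyp2b9 was 8.76 ± 1.80 (log2, SE), 435-fold, in WT (FDR = 0.0330) and 7.25 ± 1.66, 152-fold, in NT-KO (FDR = 0.0927), so it was called in WT alone, and the change of the difference with genotype was -1.52 ± 1.91 (FDR = 0.873). The WT call of Cyp2b9 was lost without any 1 of the 2 male WT or 4 female libraries (FDR = 0.0590 to 0.104), with differences of 7.74 to 12.6. In NT-KO the difference was called with the likelihood ratio test (FDR = 0.00336), with DESeq2 (FDR = 0.00451), with a replicate block (9.14, FDR = 3.82e-04), with no filter beyond 1 count (FDR = 3.05e-114) and without male NT-KO replicate 2 (12.4, FDR = 0.0328). Cyp2b13 differed by 9.68 ± 1.27 (log2, SE), 819-fold, in WT (FDR = 0.00577) and by 9.61 ± 1.26, 784-fold, in NT-KO (FDR = 0.00664). These values are a description, and their size rests on few male counts. The difference rose to 14.1 in WT without male WT replicate 2 and to 12.8 in NT-KO without male NT-KO replicate 2. Of the 50-base stretches of Cyp2b13, 27.3% occur in other genes, 13.8% in the pseudogene Gm45225 and 10.8% in Cyp2b9, so these levels are uncertain where the counting split such reads. Cyp2b9 made up 54.2 to 69.1% of the summed counts of Cyp2b9 and Cyp2b13 in females and 69.5 to 91.0% in males (p = 0.0286 in the exact permutation test, 0.0286 adjusted over 4 tests), and the replicate 1 male shares rest on 5 and 7 counts. The highest female share, 69.06%, lay just under the lowest male share, 69.53%. The 95% counting intervals of both replicate 1 males and of male WT replicate 2 (61.1 to 76.8%) reached below that female share. Cyp2b13 also passed the filter through its female libraries alone, so this p gives no support to a sex difference in the share.

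Cyp2b10 and Cyp2g1 were the least abundant members in the female libraries per kb. Cyp2b10 (ENSMUSG00000030483, 25897620 to 25926624, plus strand) encodes the P450 most strongly induced by phenobarbital in mouse liver. It had 2.70 and 0.329 CPM in WT males, 2.43 and 2.61 CPM in NT-KO males, 8.99 and 18.9 CPM in WT females and 17.3 and 15.5 CPM in NT-KO females. Male WT replicate 2, with 14 counts, stood below the 3 other male libraries. Between the sexes, Cyp2b10 differed by 3.17 ± 0.72 (log2, SE), 9.02-fold, in WT (FDR = 0.0421) and 2.70 ± 0.70, 6.52-fold, in NT-KO (FDR = 0.147), so it was called in WT alone, and the change with genotype was -0.47 ± 0.95 (FDR = 0.926). It fell to 2.38 in WT without male WT replicate 2, and the WT call was lost without any 1 of the 4 female libraries (FDR = 0.0745 to 0.181), with the 4 WT libraries alone (FDR = 0.0837) or with a replicate block (3.43, FDR = 0.0562). In NT-KO it was called with the likelihood ratio test (FDR = 0.0120), with the 4 NT-KO libraries alone (FDR = 0.00165) and without either male WT library (FDR = 0.00895 and 0.00926). The same male WT library had the highest summed level of 9 acute phase genes, 15800 CPM, beside 4198 to 7801 CPM in the other libraries, and the part of this in the low Cyp2b10 was not tested.

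Cyp2g1 (ENSMUSG00000049685, 26808892 to 26821205, plus strand) is best known as a P450 of the olfactory mucosa. It had 0.586 and 0.564 CPM in WT males, 3.31 and 1.70 CPM in NT-KO males, 14.9 and 11.9 CPM in WT females and 15.16 and 15.02 CPM in NT-KO females. The male NT-KO libraries lay between male WT and the females, with no overlap between groups of males. The difference between the sexes in Cyp2g1 was 4.54 ± 0.35 (log2, SE), 23.2-fold, in WT (FDR = 4.98e-04) and 2.602 ± 0.304, 6.07-fold, in NT-KO (FDR = 0.00385). Cyp2g1 was the 18th gene of 13117 by p in NT-KO males against male WT, with a difference of 2.11 ± 0.34, 4.32-fold, an unadjusted p of 2.17e-04 and an FDR of 0.155, which is not a call. It was called with edgeR's likelihood ratio test (FDR = 3.24e-05), with DESeq2 (FDR = 7.34e-06), with no filter beyond 1 count (FDR = 5.72e-10) and without male NT-KO replicate 2 (2.51, FDR = 0.0469). Both male NT-KO libraries were above both male WT libraries for 1 of the 8 members, Cyp2g1, and for 19.6% of all tested genes.

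In females Cyp2g1 was 0.18 ± 0.28 (log2, SE) higher in NT-KO (FDR = 1), and the genotype difference was 1.93 ± 0.44 smaller in females than in males, with an unadjusted p of 0.00209 and an FDR of 0.573 in edgeR's quasi-likelihood test. The likelihood ratio test and DESeq2 called this difference between the sexes (FDR = 0.0399 and 0.0216). Other lists moved between the male genotypes too, with 0 genes called in those named here. Of 15 tested genes for PAR bZIP factors and the clock, 8 were higher and 7 lower in NT-KO males. At an unadjusted p under 0.05 in the quasi-likelihood test, 7 of the 15 passed, beside 11.5% of all genes. Acute phase genes were lower in NT-KO males in 9 of 9, and their summed level was highest in male WT replicate 2. The summed level of 6 B lymphocyte genes was 9.78 and 11.2 CPM in WT males and 41.2 and 68.6 CPM in NT-KO males, with all 6 higher and 0 called, and it was 27.7 to 30.5 CPM in WT females and 12.5 to 15.5 CPM in NT-KO females. The 5 blood genes measured summed to 953 and 443 CPM in WT males and 373 and 371 CPM in NT-KO males. No gene of the B lymphocyte and blood lists was at 0 counts in a library. The part of all these lists in the Cyp2g1 values was not tested.

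**Figure D4:**
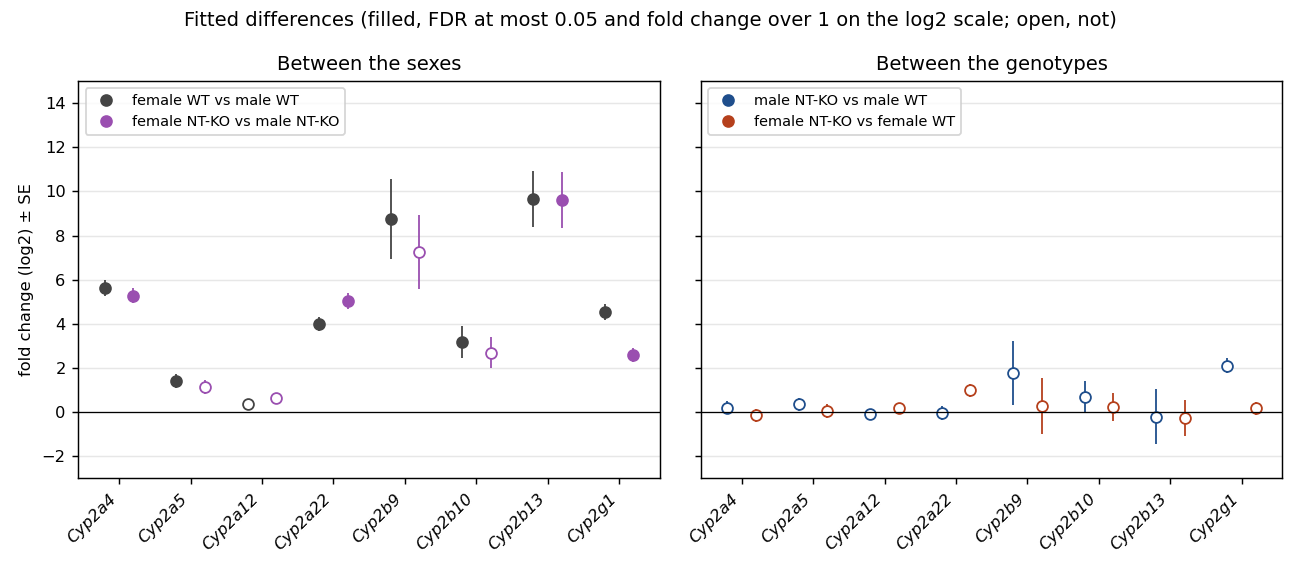
Fitted differences on the log2 scale with their standard errors, left between the sexes in each genotype and right between the genotypes in each sex, filled where called. All 16 sex differences lie above 0, 11 of them filled (Cyp2b13, in both genotypes, passed the filter through its female libraries alone), and none of the 16 genotype differences is filled, with Cyp2g1 in males (2.11) and Cyp2a22 in females (0.99) farthest from 0 in units of their error.

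No member was called between NT-KO and WT in either sex, nor for the difference between the sexes in that comparison, with edgeR's quasi-likelihood test. Among all tested genes 0.0152% were called in males, 0.00762% in females and 0.0152% for the difference between the sexes. The study's methods name another edgeR fit, glmFit. Its likelihood ratio test called Cyp2g1 in males and for that difference, as given above, and the share of all genes it called there is not given here. At an unadjusted p under 0.05, 1 member passed in males (Cyp2g1), 1 in females (Cyp2a22) and both of these for the difference, beside 11.5, 1.55 and 7.20% of all genes. In males 5 of the 8 members were higher in NT-KO with a median of 0.29 (log2), beside 51.6% of all genes and a median of 0.01. In females 6 of 8 were higher with a median of 0.18, beside 50.3% of all genes and a median of 0.00. For 3 of them (Cyp2a12, Cyp2a22 and Cyp2g1) both NT-KO libraries lay above both WT libraries, a pattern of 11.5% of all genes. For the other members, differences between the genotypes ran from -0.20 ± 1.23 for Cyp2b13 to 1.79 ± 1.44 for Cyp2b9 in males (log2, SE) and from -0.26 ± 0.84 for Cyp2b13 to 0.28 ± 1.26 for Cyp2b9 in females. The standard errors of Cyp2b9 and Cyp2b13 were 0.84 to 1.44 in these comparisons, so this fit could not detect differences of that size. For each gene it shares an estimate of the spread over males and females. Replicates of these genes lay 3.27 to 5.69 apart in males and 0.13 to 0.93 in females (log2), so the female limit also reflects the male libraries.

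The regions just before the start sites of 7 members were searched in RefSeq, and that of Cyp2g1 was not used here. The motifs, both strands of the 250 bases before the start, were chosen after these sequences had been seen. TTGCNNAA, a C/EBP-type motif, occurred in 5 of the 7 (Cyp2a4, Cyp2a5, Cyp2b9, Cyp2b10 and Cyp2b13) and in 9.56% of 32851 promoters of the same length. CAAAGTCC, an HNF4-type motif, occurred in Cyp2a4 and Cyp2a5 and in 1.196% of all, and TATAAA in the 4 Cyp2a genes and in 12.4% of all. In these windows Cyp2a4 and Cyp2a5 were 98.4% identical, Cyp2b9 and Cyp2b13 99.2% and Cyp2a12 and Cyp2a22 89.1%. Matches shared within such a pair are not separate cases, so these counts are not comparable with the shares of all promoters. TTCNNNGAA, the STAT-type motif, and TTATGTAA and TTACGTAA, which PAR bZIP factors such as Dbp bind, were in none of the 7 windows and in 7.02, 0.819 and 0.113% of all. No matches overlapped. The TTGCNNAA match began 58 bases before the start in Cyp2b10, 70 in Cyp2a4 and 71 in Cyp2a5, and 180 bases before it in Cyp2b9 and Cyp2b13. A stretch of 32 bases is printed for 5 genes because the match near the start of Cyp2b10 has no counterpart in the aligned bases of Cyp2b9 and Cyp2b13, while Cyp2a4, with the match, had a wide sex difference and Cyp2a5, with the same match, a narrow one. Capitals mark the TTGCNNAA match, and in Cyp2b9 and Cyp2b13 the bases aligned with it, which do not match. The stretches lie on the plus strand of GRCm38.p6 at chr7:25897588-25897619, chr7:26173338-26173369, chr7:26061424-26061455, chr7:26307110-26307141 and chr7:26835256-26835287, in the order printed, and a match is a description of the letters only.
Cyp2b10: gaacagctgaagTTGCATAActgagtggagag
Cyp2b9: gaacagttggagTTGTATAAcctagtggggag
Cyp2b13: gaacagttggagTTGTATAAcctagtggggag
Cyp2a4: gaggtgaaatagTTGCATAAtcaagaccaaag
Cyp2a5: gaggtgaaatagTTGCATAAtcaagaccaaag

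Some other features of the cluster had more counts in females, and this was not tested over them. Of 22 genes between the first and the last member, 6 had no count in any library and 4 were tested, all pseudogenes or antisense RNA. Rnf170-ps overlapped between the sexes, with 0.859 CPM in male NT-KO replicate 2 and 0.855 CPM in female NT-KO replicate 1. Gm29920, a pseudogene just past the end of Cyp2b13, had 0, 0, 0 and 2 counts in the male and 118 to 270 counts in the female libraries. The untested Cyp2b27-ps had 0 or 1 count in males and 20 to 46 in females, Gm45225 had 0 in males and 12 to 23 in females, and Cyp2b23, a further Cyp2b gene, had 0 in males and 3 to 5 in females. Cyp2f2, a lung and liver P450 just outside the members, went the other way, with 819 to 1433 CPM in males and 668 to 919 CPM in females. Its difference between the sexes was -0.74 ± 0.24 in WT (log2, SE, FDR = 0.0974) and -0.13 in NT-KO, and it was the 1 tested gene of a list of 5 neighbouring P450s.

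Among regulators of the members, CAR itself was not called in any comparison with edgeR's quasi-likelihood test. Nr1i3 had 49.7 and 57.0 CPM in WT males, 144 and 58.3 CPM in NT-KO males, 141 and 167 CPM in WT females and 117 and 150 CPM in NT-KO females, so 1 male NT-KO library stood with the females. The sex difference of Nr1i3 was 1.53 ± 0.37 (log2, SE) in WT (FDR = 0.0512) and 0.41 ± 0.37 in NT-KO (FDR = 0.861). PXR (Nr1i2), the related drug receptor, had 64 to 90.9 CPM in males and 84.0 to 111 CPM in females, and Rxra, the partner of both, 230 to 310 CPM in males and 250 to 301 CPM in females. Of 13 CAR and PXR regulators, 2 were called lower in female WT than in WT males, the growth factor receptor Egfr (-1.40, FDR = 0.0362) and the chaperone Hsp90aa1 (-1.81, FDR = 0.0314), and Egfr alone in NT-KO (-1.82, FDR = 0.0235). None of the 13 was called between the genotypes.

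Most targets of CAR and PXR outside the family were not called between the sexes. Of 30 tested, 1 was called higher in females in each genotype, the drug exporter Abcb1a (2.71 in WT, FDR = 0.00608, and 2.40 in NT-KO, FDR = 0.0114). In WT, 10 of the 30 had an unadjusted p under 0.05, among them Cyp2c37 (2.37, FDR = 0.0564), Abcc3 (1.42, FDR = 0.0658) and Slco1a4 (1.37, FDR = 0.0597), which were not called. The list's median difference was 0.04 in WT and 0.08 in NT-KO, and it was not tested against the members. Between the genotypes none was called, with medians of 0.31 in males and 0.07 in females. Por, the electron donor, had 303 to 504 CPM in males and 436 to 588 CPM in females and was not called in any comparison, nor was any other of 16 genes for electron transfer and heme. Of 12 tested NRF2 genes, the quinone reductase Nqo1 was called higher in WT females (2.29, FDR = 0.0108) and none in any other comparison. None of 12 pericentral or 10 periportal hepatocyte genes was called in any comparison.

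**Figure D5:**
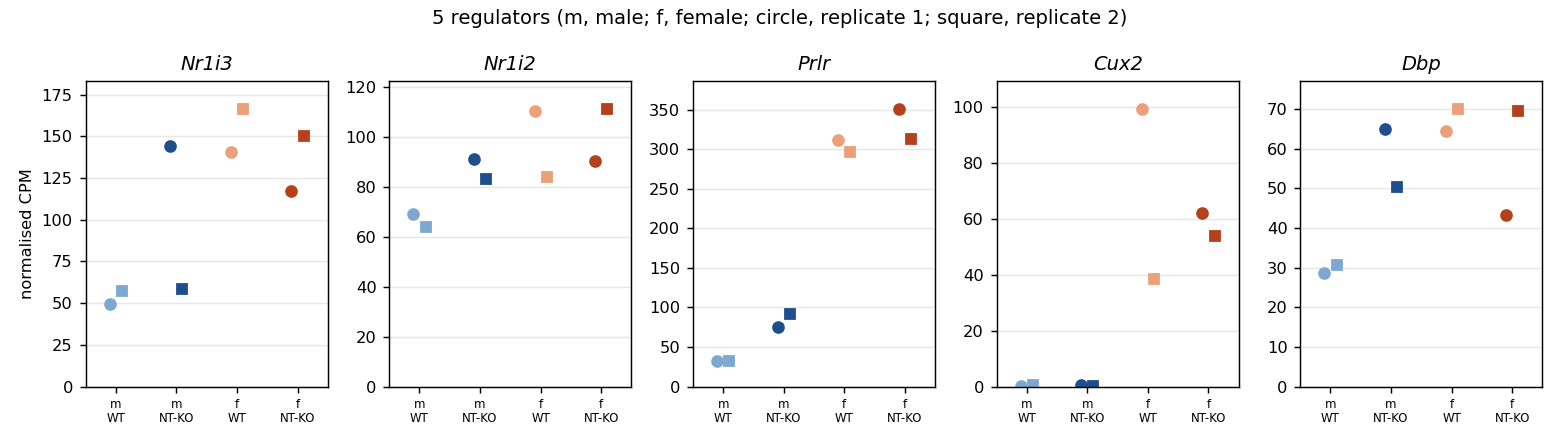
Normalised CPM of Nr1i3, Nr1i2, Prlr, Cux2 and Dbp by group, 1 point per library. Cux2 and Prlr separate the sexes in all libraries (Cux2 at most 0.632 CPM in males and at least 38.5 CPM in females), while Nr1i3 and Dbp in 1 or both male NT-KO libraries reach the range of the females.

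In the growth hormone list, Prlr, Cux2 and Trim24 were called higher in female WT than in male WT, and Prlr and Cux2 in NT-KO. Cux2 had 0.248, 0.447, 0.632 and 0.344 CPM in the male and 99.2, 38.5, 62.0 and 53.9 CPM in the female libraries, WT first, a difference of 7.66 ± 0.59 (log2, SE) in WT (FDR = 4.98e-04) and 6.90 ± 0.56 in NT-KO (FDR = 8.08e-04). Prlr, the prolactin receptor, had 32.9 and 33.0 CPM in WT males, 75.8 and 91.2 CPM in NT-KO males and 297 to 351 CPM in females, and was 1.34 ± 0.18 higher in male NT-KO than in WT males (FDR = 0.0877), not called. Bcl6 had 48.2 to 52.1 CPM in WT males, 25.2 to 30.4 CPM in NT-KO males and 7.45 to 37.8 CPM in females, and Stat5b 27.9 to 41.9 CPM over all libraries, neither called in any comparison.

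Some clock genes were called between the sexes in WT mice. Of 15 tested genes for PAR bZIP factors and the clock, 2 were called higher (Dbp, 1.18 ± 0.24, FDR = 0.0301, and Per3, 1.15 ± 0.14, FDR = 0.00339) and 3 lower (Arntl, -2.83 ± 0.42, FDR = 0.0101, Clock and Cry1) in female WT than in WT males. In NT-KO mice none was called, and the Dbp difference between the sexes was -0.02 ± 0.23 (FDR = 0.991). Hlf and Tef had 46.5 to 57.8 and 188 to 295 CPM over all libraries. Blood genes were lower in female WT than in WT males (5 of 5, 4 called), with 185 and 181 CPM summed in WT females and 318 and 170 CPM in NT-KO females. B lymphocyte genes were higher (6 of 6, 3 called), and Kupffer cell genes were higher as well (5 of 5, 0 called), with 124 to 221 CPM in males and 230 to 275 CPM in females. Acute phase genes were lower in WT females in 9 of 9, with 0 called. The part of these lists in the sex differences of the members was not tested.

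Over the 8 libraries, on log2 CPM, the genes outside the family whose levels were most like each member were Nagk (Pearson's r = 0.993) and Cux2 (0.993) for Cyp2a4, Dtd1 (0.987) and Ces1c (0.983) for Cyp2a5, Tcn2 (0.973) and Homer2 (0.967) for Cyp2a12, and Dcbld1 (0.990) and Nt5e (0.988) for Cyp2a22. For Cyp2b9 they were Ly9 (0.989) and Rdh16f2 (0.986), for Cyp2b10 Gal3st1 and Khdrbs3 (0.983 each), for Cyp2b13 Ly9 and Cyp2c69 (0.989 each), and for Cyp2g1 Acot13 and Rida (0.988 each). These correlations are descriptions over 8 libraries that fall into 2 sexes, and a gene with a like sex difference is high on any of them. Rida followed the intermediate males of Cyp2g1, with 598 and 569 CPM in WT males, 854 and 727 CPM in NT-KO males and 956 to 1072 CPM in females. Cyp2c69, a P450 of another cluster, followed Cyp2b13, with 0.515 and 3.15 CPM in WT males, 1.08 and 2.56 CPM in NT-KO males and 471 to 1056 CPM in females.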

How the data were processed

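The authors isolated liver RNA with Trizol, made libraries with a TruSeq kit, trimmed reads with cutadapt, aligned them with STAR 2.6.1a to Ensembl GRCm38 and counted them per gene with featureCounts. The strand setting and the handling of multiply mapped reads are not given in the sources used here. The deposited values are raw counts. Of the gene IDs, 49412 matched GENCODE annotation of GRCm38 and 259 did not.

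CPM were scaled by TMM (factors 0.920 to 1.05). With edgeR 4.0.16 in R 4.3.3, genes reaching 1 CPM in 2 or more libraries, without rRNA, miRNA and mitochondrial genes, were fitted with 4 group means over all 8 libraries by the quasi-likelihood test. A call needed an FDR of 0.05 or less and a log2 fold change beyond 1 in size (for the difference between the sexes, FDR alone). With 2 libraries a group, p-values show only the spread between these samples, which are not stated to be separate animals. The method was tested on simulated data. DESeq2 1.42.0 and other settings were alternatives. Named were all members, up to 5 genes of each list per comparison, preset regulators, tested genes inside the cluster and the 2 genes most like each member. The antisense, pseudogene and shared-sequence genes outside this were named after their values were seen. The members and lists were chosen with earlier results of these data known. Intervals and floors cover counting error only. A result for 1 gene of the growth hormone list is not reported here.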

Additional observations from a re-analysis of the deposited data

How the results depend on the processing

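All 256 alternative values for the difference between the sexes over the 8 members and both genotypes were above 0, the lowest being 0.18 for Cyp2a12 in WT without male WT replicate 2. They are re-fits of the same libraries, where every female library was above every male library, so their sign adds no support. Of 631 alternative values for the members, 563 kept the direction and the side of the threshold, 22 came to pass it, 18 ceased to pass it and 28 changed sign, of which none had been called. Where a library was left out, the lone sample of its group was assumed to vary like the other groups, and the cause of each change below was not tested.

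The members called between male genotypes were 0, and 1 with the likelihood ratio test, 1 with DESeq2 and 2 with no filter beyond 1 count, where 667 instead of 2 genes were called in all. For the difference between the sexes they were 0, and 1, 1 and 2 under the same 3 settings, with 552 instead of 2 genes called in all with no filter. Between the sexes in WT, 7 became 4 at an FDR of 0.01, and in NT-KO 4 became 7 with the likelihood ratio test and 7 with no filter. Between female genotypes it was 0 under every alternative run, with 11 genes called in all by the likelihood ratio test, 5 by DESeq2 and 1 member at an unadjusted p under 0.05. How many members were called between male genotypes and between the sexes in WT also depended on which library was left out. Where no number of all genes called stands beside a member count in this section, that count is not a result about the members. Per length of unshared sequence the mean Cyp2a4 share of the counts of Cyp2a4 and Cyp2a5 was 6.26% in WT males (4.87% before), 5.67% in NT-KO males (4.41%) and 51.6% in NT-KO females (45.03%).

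Over all tested genes, the correlation of the deviations of same-numbered samples was -0.0066 in males and 0.0231 in females. A value near 0 over all genes cannot exclude a pairing by number that moves some of them. With a replicate block, 6 members were called between the sexes in WT, without Cyp2b10 (3.43, FDR = 0.0562), and 5 in NT-KO, with Cyp2b9 (9.14, FDR = 3.82e-04), by edgeR's quasi-likelihood test, and the difference of Cyp2b13 between the sexes in NT-KO vs WT was 0.057 (-0.064 before).

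Signs turned as follows, on the log2 scale. With library size only, Cyp2a22 in male NT-KO against male WT was 0.031, and the Cyp2b13 difference between the sexes was 0.053 with the likelihood ratio test and 0.064 with DESeq2. Without 1 library, male NT-KO against male WT ranged from -0.079 to 0.54 for Cyp2a4, -0.26 to 0.12 for Cyp2a12, -0.23 to 0.19 for Cyp2a22, -3.33 to 5.63 for Cyp2b9, -0.092 to 2.92 for Cyp2b10 and -3.35 to 4.27 for Cyp2b13. For female NT-KO against female WT the range was -0.37 to 0.15 for Cyp2a4, -0.15 to 0.32 for Cyp2a5, -0.011 to 0.63 for Cyp2b9, -0.20 to 0.86 for Cyp2b10 and -0.65 to 0.27 for Cyp2b13. For the difference between the sexes it was -0.66 to 0.022 for Cyp2a5, -5.36 to 3.61 for Cyp2b9, -2.67 to 0.33 for Cyp2b10 and -4.53 to 3.09 for Cyp2b13. The male libraries had 4 to 372 counts of Cyp2b9 and 1 to 39 of Cyp2b13.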
